A study of Mus musculus with 11 samples.

Results

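The 10 genes described here, Plcz1, Itpr1, Camk2g, Mos, Fbxo43, Fbxo5, Wee2, Ccnb1, Ccnb2 and Cdc20, encode regulators of egg activation and of the exit from meiosis. They were chosen by gene symbol from a table of 49585 genes, and all 10 were found there. All 10 also belonged to the 21938 genes tested, those that reached 1 TPM in 2 or more of the 11 libraries. TPM is the level of a transcript corrected for its length and for the size of the library. The study set embryos of C57BL/6 mice from round spermatid injection (ROSI) against embryos from intracytoplasmic sperm injection (ICSI). The groups were 3 libraries of ROSI 2-cell embryos, 3 of ICSI 2-cell embryos, 2 of ROSI zygotes and 3 of ICSI zygotes. ROSI places a round spermatid, a haploid male germ cell that has not yet become a sperm, into the egg. After ROSI the eggs were activated for 1 to 2 h in CZB medium free of calcium that held 5 mM strontium chloride, and were then grown in KSOM, whereas the labels give culture in KSOM alone for ICSI embryos. The injected cell and the strontium step thus differ together and cannot be told apart. The labels give no collection hour, no number of embryos in a library and no statement that replicates came from separate cultures, so p-values measure only the spread between these libraries.

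A fertilizing sperm brings phospholipase C zeta, the product of Plcz1, into the egg, where it makes the messenger that opens inositol trisphosphate receptors such as the Itpr1 product. The repeated release of calcium activates the kinase encoded by Camk2g, which leads to the destruction of the Fbxo43 product, the protein that with the Mos pathway holds the egg in metaphase. The anaphase-promoting complex (APC/C), switched on by the Cdc20 product, can then degrade the B cyclins Ccnb1 and Ccnb2, while the Wee2 kinase inhibits CDK1. Strontium makes mouse eggs release calcium without the sperm factor.

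The libraries held between 8.48 and 85.9 M recovered reads (M, 1e6), and a transcript of 2 kb with 3 reads corresponds to between 0.0512 and 0.396 TPM. The 12 oocyte markers summed to between 1374 and 1707 TPM in ROSI 2-cell libraries, between 2043 and 2069 TPM in ICSI 2-cell libraries, between 9278 and 10824 TPM in ROSI zygotes and between 10911 and 13301 TPM in ICSI zygotes. The 11 early 2-cell transcripts measured summed to between 478 and 678 TPM in ROSI 2-cell libraries and between 945 and 979 TPM in ICSI 2-cell libraries, against at most 106 TPM in ROSI zygotes and 129 TPM in ICSI zygotes. By these sums both stages showed the transcripts that their labels call for. Duxf3, 1 of the 11 early 2-cell transcripts, ran the other way. It averaged 1.08 TPM in ROSI and in ICSI 2-cell embryos, against 14.8 TPM in ROSI and 10.9 TPM in ICSI zygotes. Protein-coding genes took between 44.6% and 51.4% of the TPM in the 2-cell libraries and between 65.9% and 71.6% in the zygotes. ROSI zygote replicate 1 and ICSI zygote replicate 1 held 0.611% and 0.572% of their TPM in small nuclear and nucleolar RNA, against 1.64% or more in the other 3 zygote libraries. The 11 cumulus cell markers summed to between 45.4 and 52.9 TPM in ROSI and between 31.4 and 43.8 TPM in ICSI 2-cell libraries, with 0 of the 4 tested passing, and to at most 15.5 TPM in a zygote library. In 2-cell embryos this was mostly 1 gene, Amhr2, and the other 10 markers summed to between 3.80 and 4.68 TPM in ROSI and between 5.89 and 6.20 TPM in ICSI 2-cell libraries. Every pair of replicates differed by more than sampling noise, with a mean chi-square of 8.67 to 58.4 per gene where 1 is expected. Gene positions are those of the GENCODE M21 annotation of GRCm38.

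**Figure D1:**
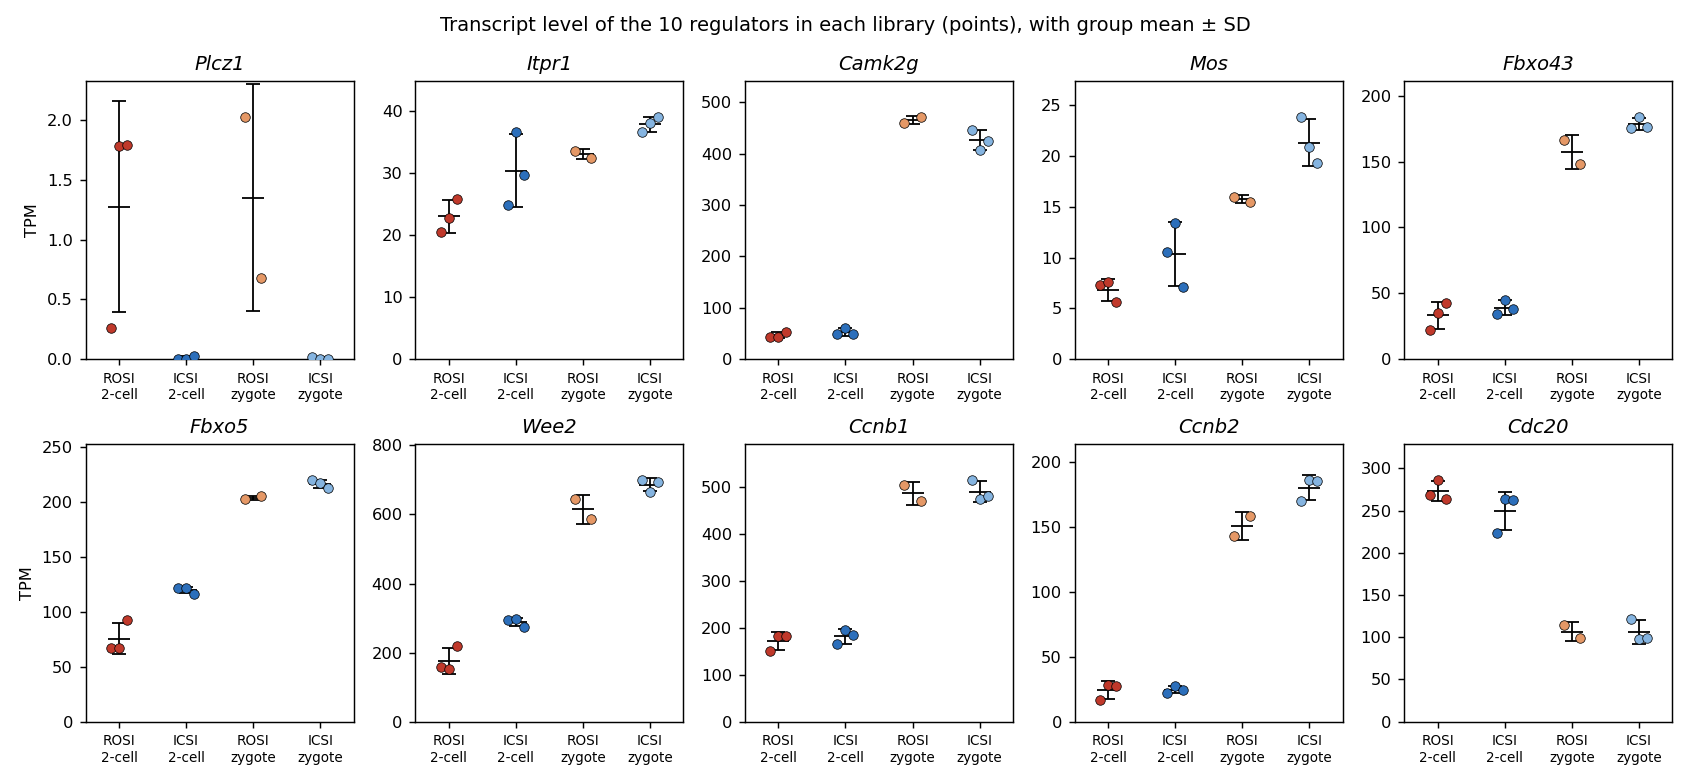
TPM (vertical axes, from 0) of each of the 10 genes in the 11 libraries, by group. Points are libraries, long bars are group means and whiskers are 1 SD (n = 3, 3, 2 and 3 from left to right). Of the genes called between the stages, Cdc20 alone is higher in 2-cell embryos, and the ROSI 2-cell libraries all lie below the ICSI ones for Fbxo5 and Wee2 and above them for Plcz1 and Cdc20.

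Plcz1 transcript was found in the ROSI libraries and was nearly absent after ICSI. Plcz1 (chr6:139989673-140041457, minus strand) is a gene of spermatids and testis, and its product is the sperm factor that starts the calcium signal. Its level was 0.259, 1.78 and 1.79 TPM in the ROSI 2-cell libraries, against 0, 0 and 0.0292 TPM in the ICSI 2-cell libraries. In zygotes it was 2.02 and 0.680 TPM after ROSI, against 0.0154, 0 and 0 TPM after ICSI. Every ROSI library was above every ICSI library of its stage. These values correspond to 7, 44 and 37 reads in ROSI 2-cell libraries and 51 and 50 reads in ROSI zygotes, and to 1 read in all ICSI 2-cell libraries together and 1 read in all ICSI zygotes together. Plcz1 passed the filter on low values through its ROSI libraries alone. In RNA from whole embryos, fewer cells that hold a transcript and less of it in each cell cannot be told apart, here and below.

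The pooled reads give the size of this difference as a description of the libraries. ROSI zygotes had 101 reads in 116 M and ICSI zygotes 1 read in 233 M, a ratio of 203 with an exact 95% interval of 35.5 to 8078. ROSI 2-cell libraries had 88 reads in 66.2 M and ICSI 2-cell libraries 1 read in 71.4 M, a ratio of 94.9 with an interval of 16.6 to 3791. These intervals, from the exact binomial method, cover counting error only. On the log2(TPM + 1) scale, which understates the change of a gene this low, the ROSI minus ICSI difference was 1.08 (SE 0.33, limma adjusted p 0.0671) in 2-cell embryos and 1.16 (SE 0.37, limma adjusted p 0.426) in zygotes. Neither passed the threshold of 0.05 on the adjusted p. Because Plcz1 met the filter through its ROSI libraries, a higher value after ROSI was favoured from the start, and the p-values given here for other settings are a description and no support for the difference. With a pseudocount of 0.1 the 2-cell difference was 3.32 (limma adjusted p 0.0375) and the zygote difference 3.62 (limma adjusted p 0.175).

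Plcz1 varied among ROSI libraries in a way that some other spermatid transcripts followed and others did not. ROSI 2-cell replicate 1 had the lowest Plcz1 of its group, and without it the 2-cell difference was 1.46, given as a description. In that library Smcp, a gene for the capsule around sperm mitochondria, stood at 12.1 TPM, against 5.22 and 8.11 TPM in the other ROSI 2-cell libraries. Smcp was thus highest where Plcz1 was lowest, but the spermatid markers ran both ways. Odf1 and Meig1 were also highest in that library. Dbil5 was lowest there, at 7.19 TPM against 9.26 and 8.36 TPM. So was Cetn1, at 1.71 TPM against 3.58 and 3.02 TPM. In ROSI zygotes Smcp was 19.6 and 6.43 TPM and Crisp2, a gene of the acrosome and sperm tail, was 17.2 and 6.06 TPM, in replicates 1 and 2. All 3 genes were higher in replicate 1 of the ROSI zygotes. Without ROSI zygote replicate 1 the Plcz1 difference in zygotes was 0.74. Within the zygote libraries poor in small nuclear RNA it was 1.57, and within those rich in it 0.75, each a value with no test.

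The 16 spermatid markers summed to 67.7, 51.0 and 55.1 TPM in ROSI 2-cell libraries, against 12.4 to 17.7 TPM in ICSI 2-cell libraries, and to 218 and 108 TPM in ROSI zygotes, against 30.2 to 36.2 TPM in ICSI zygotes. Of the 13 tested, 7 passed as higher in ROSI than in ICSI embryos at each stage, against 4.93% of all genes tested in 2-cell embryos and 0.114% in zygotes. The filter favours this direction, since 7 of the 13 met it only with their ROSI libraries, among them 5 of the 7 called in 2-cell embryos and 4 of the 7 called in zygotes, so the counts are a description. The zygote count was 1 without ICSI zygote replicate 3, 3 without ROSI zygote replicate 1 and 0 when the zygotes were fitted alone, and the 2-cell count was 3 when the 2-cell libraries were fitted alone. Smcp was at 0 in all ICSI libraries, and between 0 and 3 of the 16 markers were at 0 in a ROSI 2-cell library. RNA brought in by the injected cell and RNA made in the embryo were not told apart. Capza3, whose product caps actin filaments in sperm, lies on the opposite strand across the 5′ end of Plcz1. It stood at 0.587 and 0.603 TPM in ROSI zygotes and at 0 in the ICSI zygotes, and at 0, 0 and 0.0795 TPM in ROSI 2-cell libraries, against 0, 0 and 0.0959 TPM in ICSI 2-cell libraries, so the 2-cell groups overlapped. The strand setting of the counting is not given in the sources used here, so reads of the overlap cannot be assigned with certainty.

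**Figure D2:**
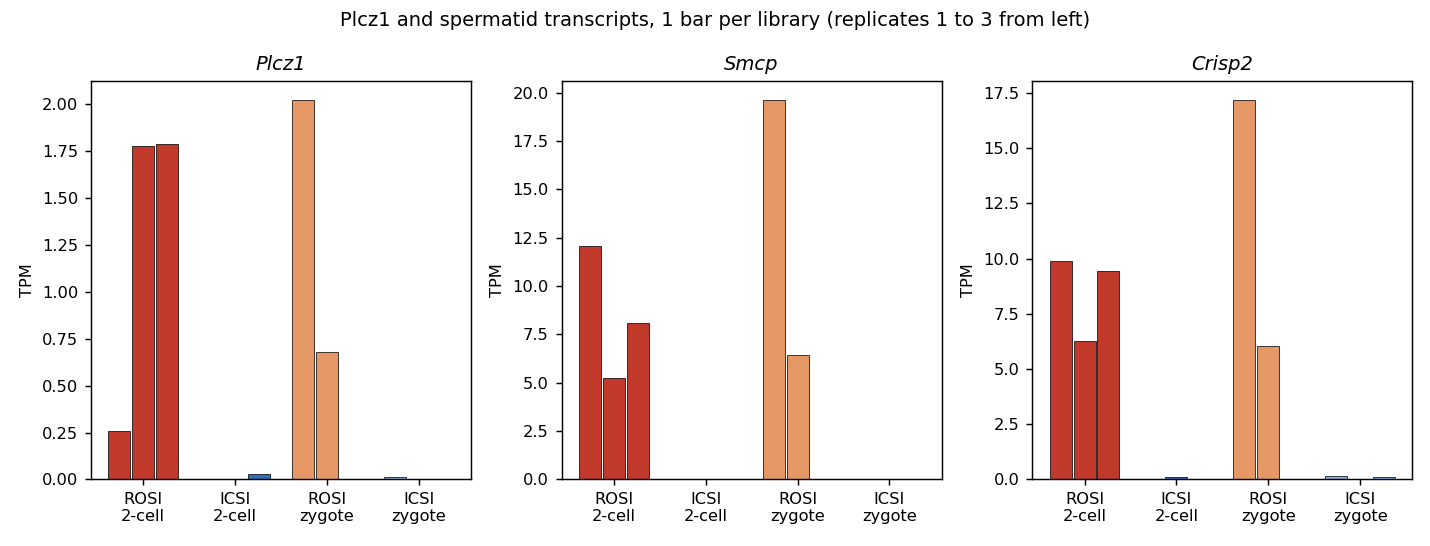
TPM (vertical axes, from 0) of Plcz1, Smcp and Crisp2, with 1 bar for each library in the order of the groups on the horizontal axis. The 5 ROSI libraries hold all 3 transcripts, the ICSI libraries are at or near 0, and ROSI 2-cell replicate 1 is lowest for Plcz1 but highest for Smcp and Crisp2 within its group. Other spermatid markers, not shown, ran both ways in that library.

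Among the genes for calcium release and its first target, Camk2g showed the steepest decline with stage of all 10 members, and Itpr1 the smallest of the changes that passed. Itpr1 (chr6:108213096-108551109, plus strand) encodes the main inositol trisphosphate receptor of the mouse egg. Its level was 20.5, 22.6 and 25.8 TPM in ROSI 2-cell libraries, against 24.8, 36.5 and 29.7 TPM in ICSI 2-cell libraries. Zygotes held 33.5 and 32.4 TPM after ROSI, against 36.5, 37.9 and 38.9 TPM after ICSI. The 2-cell groups overlapped, and both ROSI zygotes were below the ICSI zygotes. The ROSI minus ICSI difference was -0.38 on the log2 scale in 2-cell embryos (SE 0.14, limma adjusted p 0.108, 95% interval -0.68 to -0.07) and -0.19 in zygotes (SE 0.15, limma adjusted p 1).

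Between the stages Itpr1 was lower in ROSI 2-cell embryos than in ROSI zygotes by 0.51 on the log2 scale, and this -0.51 passed the test (SE 0.15, limma adjusted p 0.0119), while the change after ICSI, -0.32, did not (SE 0.14, limma adjusted p 0.0540). Neither held under another scaling of the libraries. Under the 3 other scalings the Itpr1 change after ROSI was -0.11, -0.14 and -0.05 and did not pass, and that after ICSI turned positive, at 0.15, 0.04 and 0.20. Without ROSI zygote replicate 1 the change after ROSI also missed the threshold (limma adjusted p 0.0626). The other receptor genes moved in opposite ways. Itpr2 averaged 4.56 ± 0.693 TPM in ROSI 2-cell embryos and 54.5 ± 3.51 TPM in ROSI zygotes (SD, n = 3 and 2), a log2 change of -3.33, and the change after ICSI was -3.01. Itpr3 averaged 13.5 ± 1.56 TPM in ROSI 2-cell embryos and 1.39 ± 0.499 TPM in ROSI zygotes (SD, n = 3 and 2), a log2 change of 2.62, and the change after ICSI was 2.15. All 4 of these changes passed with limma under each scaling and with each library left out.

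Camk2g (chr14:20734875-20794088, minus strand) encodes the gamma form of calcium- and calmodulin-dependent kinase II, the form on which mouse egg activation depends. Its level was 43.1, 43.2 and 53.4 TPM in ROSI 2-cell libraries, against 48.6, 61.3 and 48.4 TPM in ICSI 2-cell libraries. In zygotes it was 460 and 470 TPM after ROSI, against 445, 407 and 425 TPM after ICSI. The stages lay far apart, the 2-cell groups overlapped, and the 2 ROSI zygotes were the highest libraries of the series. The 2-cell minus zygote change was -3.30 after ROSI (SE 0.13, limma adjusted p 5.73e-09) and -3.00 after ICSI (SE 0.12, limma adjusted p 3.87e-09). Between the injections, the ROSI minus ICSI difference was -0.17 in 2-cell embryos (limma adjusted p 0.369, 95% interval -0.43 to 0.08) and 0.13 in zygotes (limma adjusted p 1, 95% interval -0.16 to 0.42). The sister genes Camk2a, Camk2b and Camk2d stayed at or under 1.22 TPM in every library.

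The metaphase arrest genes Mos and Fbxo43 both fell by the 2-cell stage, Fbxo43 by more. Mos (chr4:3870657-3872105, minus strand) encodes the kinase that starts the MAP kinase cascade of the arrest. Its level was 7.30, 7.56 and 5.61 TPM in ROSI 2-cell libraries, against 10.6, 13.4 and 7.07 TPM in ICSI 2-cell libraries. The zygote levels were 16.0 and 15.4 TPM after ROSI, against 23.8, 20.9 and 19.3 TPM after ICSI. Both ROSI zygotes were below the 3 ICSI zygotes, and the 2-cell groups overlapped through ICSI 2-cell replicate 3. The 2-cell minus zygote change was -1.11 after ROSI (SE 0.22, limma adjusted p 0.00101) and -1.01 after ICSI (SE 0.20, limma adjusted p 0.000835). Under the 3 other scalings the Mos change after ICSI lay between -0.67 and -0.53 and still passed, with limma adjusted p-values up to 0.0495. Under 2 of them the change after ROSI was -0.73 and -0.70.

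The ROSI minus ICSI difference of Mos was -0.51 in 2-cell embryos (SE 0.20, limma adjusted p 0.130) and -0.41 in zygotes (SE 0.22, limma adjusted p 0.899), so it passed at neither stage. Without ICSI 2-cell replicate 3 the 2-cell difference was -0.73 (limma adjusted p 0.0299), and without ICSI 2-cell replicate 2 it was -0.31 (limma adjusted p 0.332). The shallowest library, ICSI 2-cell replicate 1, held 58 Mos reads, and the others held between 67 and 891.

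Fbxo43 (chr15:36150060-36164884, minus strand) encodes Emi2, the APC/C inhibitor that is destroyed at activation. Its level was 22.2, 34.8 and 42.9 TPM in ROSI 2-cell libraries, against 34.2, 45.1 and 37.7 TPM in ICSI 2-cell libraries. In zygotes it was 167 and 148 TPM after ROSI, against 176, 184 and 176 TPM after ICSI. ROSI 2-cell replicate 1 was the lowest library, and the 2-cell groups overlapped. The 2-cell minus zygote change was -2.25 after ROSI (SE 0.22, limma adjusted p 4.77e-06) and -2.17 after ICSI (SE 0.20, limma adjusted p 2.38e-06). Between the injections, the ROSI minus ICSI difference was -0.26 in 2-cell embryos (limma adjusted p 0.433, 95% interval -0.70 to 0.18) and -0.18 in zygotes (limma adjusted p 1, 95% interval -0.67 to 0.31).

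Fbxo5 and Wee2 were the members that passed the test between ROSI and ICSI 2-cell embryos, and both were lower after ROSI. Fbxo5 (chr10:5799160-5805600, minus strand) encodes Emi1, the relative of Emi2 that restrains the APC/C in interphase. Wee2 (chr6:40439088-40466813, plus strand) encodes an egg kinase that inhibits CDK1 and that mouse eggs need to leave metaphase. The promoter windows of both are shown because these genes moved together, 5′ to 3′ on the strand of the gene, from 250 bases before to 50 bases after the RefSeq start in GRCm38.p6. Capitals mark CCAAT boxes (CCAAT, or ATTGG on the other strand) and CHR elements (TTTGAA or TTCGAA on either strand), motifs known from the promoters of cell-cycle genes.
Fbxo5, chr10:5805416-5805715, minus strand: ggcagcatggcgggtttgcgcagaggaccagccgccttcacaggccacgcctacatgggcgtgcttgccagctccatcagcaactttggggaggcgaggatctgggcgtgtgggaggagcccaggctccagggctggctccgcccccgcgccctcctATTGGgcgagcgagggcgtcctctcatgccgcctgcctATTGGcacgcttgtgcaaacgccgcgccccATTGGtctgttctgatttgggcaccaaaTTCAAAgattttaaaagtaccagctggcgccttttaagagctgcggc
Wee2, chr6:40442613-40442912, plus strand: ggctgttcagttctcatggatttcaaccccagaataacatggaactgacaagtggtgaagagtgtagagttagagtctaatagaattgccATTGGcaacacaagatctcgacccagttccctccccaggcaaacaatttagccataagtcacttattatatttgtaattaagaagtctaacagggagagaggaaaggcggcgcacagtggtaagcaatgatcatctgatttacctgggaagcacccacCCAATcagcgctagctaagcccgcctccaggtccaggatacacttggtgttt
The Fbxo5 window held 3 CCAAT boxes, all on the strand opposite to the gene, and 1 CHR element just after the start. The Wee2 window held 2 CCAAT boxes, 1 on each strand, and no CHR letters. It lies inside the GENCODE span of Wee2 given above, downstream of its start, so the annotations place the start differently. Of 32851 promoter windows of this length, 37.41% held a CCAAT box and 19.23% a CHR element, so a CCAAT match is common. Any part of these motifs in the levels of Fbxo5 and Wee2 was not tested. RefSeq windows were matched for 5 of the 10 members, Cdc20, Wee2, Ccnb2, Fbxo5 and Ccnb1.

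Fbxo5 stood at 67.3, 67.3 and 92.4 TPM in ROSI 2-cell libraries, against 121, 122 and 116 TPM in ICSI 2-cell libraries. In zygotes it stood at 203 and 205 TPM after ROSI, against 220, 218 and 213 TPM after ICSI. The highest ROSI 2-cell library was below the lowest ICSI 2-cell library. The mean was 75.7 ± 14.5 TPM in ROSI and 120 ± 3.10 TPM in ICSI 2-cell embryos (SD, n = 3 each). On the log2 scale Fbxo5 was lower after ROSI at -0.67 (SE 0.11, limma adjusted p 0.00923). In zygotes the difference was -0.09 (SE 0.13, limma adjusted p 1, 95% interval -0.37 to 0.20).

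Wee2 stood at 158, 152 and 219 TPM in ROSI 2-cell libraries, against 294, 296 and 274 TPM in ICSI 2-cell libraries. In zygotes it stood at 645 and 585 TPM after ROSI, against 700, 664 and 694 TPM after ICSI. Here too the groups did not overlap at either stage, and ROSI 2-cell replicate 3 lay nearest to the ICSI libraries for both genes. The 2-cell mean was 176 ± 36.8 TPM in ROSI and 288 ± 11.9 TPM in ICSI embryos (SD, n = 3 each), and Wee2 was lower after ROSI at -0.72 on the log2 scale (SE 0.13, limma adjusted p 0.00965). In zygotes the difference was -0.16 (SE 0.14, limma adjusted p 1, 95% interval -0.47 to 0.15).

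Of the 10 members 0 passed as higher and 2 as lower in ROSI 2-cell embryos, against 4.93% higher and 4.58% lower among all genes tested. The median difference of the members was -0.22 on the log2 scale, against 0.04 for all genes. Both calls held with each library left out (limma adjusted p up to 0.0351 for Fbxo5 and 0.0356 for Wee2). They ended when the 6 libraries of 2-cell embryos were fitted alone, at adjusted p-values of 0.0799 for Fbxo5 and 0.0830 for Wee2, with the same differences. The oocyte markers moved in the same direction, 5 of 12 passing as lower in ROSI 2-cell embryos, among them Gdf9 at -0.69 and Oosp1 at -0.91. Of the 11 early 2-cell transcripts 7 passed as lower. With 1 library left out between 2 and 4 oocyte markers and between 4 and 8 early 2-cell transcripts passed as lower. The fewest oocyte markers passed without replicate 1 or 2 of either 2-cell group. For early 2-cell transcripts the fewest passed without ICSI 2-cell replicate 2. When the 2-cell libraries were fitted alone, 1 of the oocyte markers and 0 of the early 2-cell transcripts passed as lower. Their part in the Fbxo5 and Wee2 differences was not tested.

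In zygotes 0 of the 10 members passed in either direction, against 0.114% of all genes higher and 0.0319% lower. An unadjusted limma p under 0.05 was found for 1 member, Plcz1, and for 1392 of the 21938 genes tested. The zygote medians were -0.12 for the members and -0.06 for all genes. The zygote libraries poor in small nuclear RNA and those rich in it are parts of the pooled comparison. A shared sign was thus favoured from the start, and its share over all genes was not counted. As a description, 9 of the 10 members had the pooled sign within both kinds. The exception was Cdc20, at -0.09 and 0.01.

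**Figure D3:**
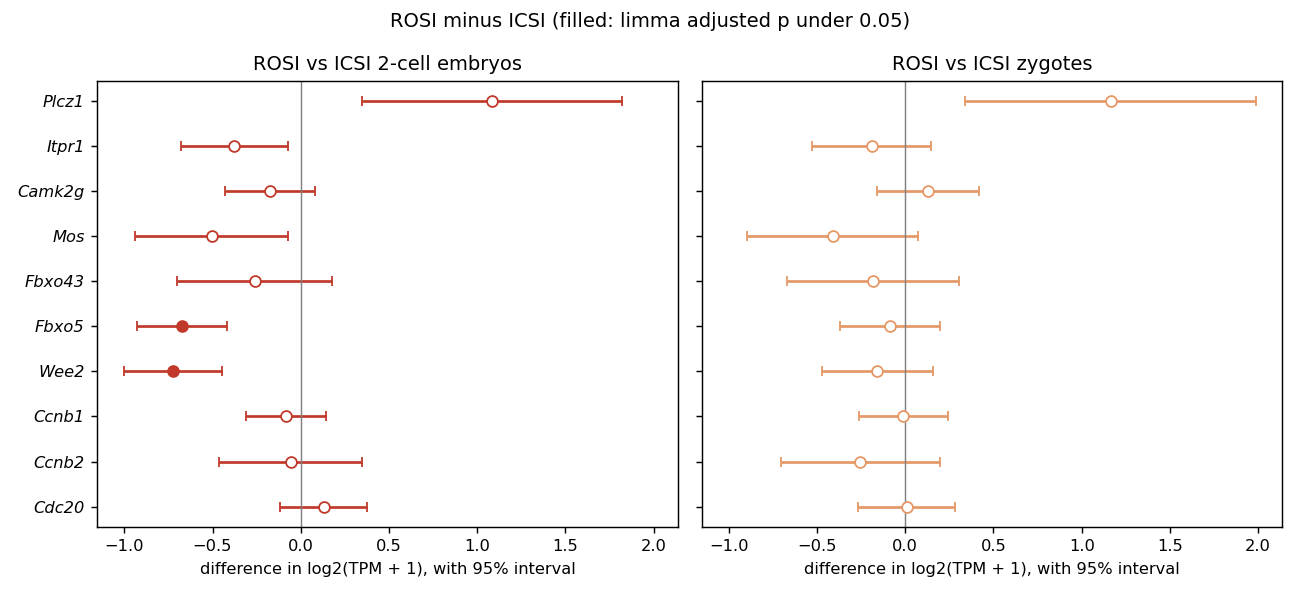
ROSI minus ICSI difference of each gene in log2(TPM + 1) (horizontal axes), in 2-cell embryos (left) and zygotes (right). Points are limma estimates, bars are 95% intervals, and filled points have an adjusted p under 0.05. Only Fbxo5 and Wee2 in 2-cell embryos are filled.

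The B cyclins fell with stage, and neither passed between ROSI and ICSI embryos. Ccnb1 (chr13:100778650-100786570, minus strand) encodes the main cyclin partner of CDK1. Its level was 150, 182 and 183 TPM in ROSI 2-cell libraries, against 165, 196 and 185 TPM in ICSI 2-cell libraries. The zygote levels were 503 and 469 TPM after ROSI, against 514, 474 and 481 TPM after ICSI. The ROSI and ICSI libraries overlapped at both stages. The 2-cell minus zygote change was -1.50 after ROSI (SE 0.11, limma adjusted p 6.62e-07) and -1.43 after ICSI (SE 0.10, limma adjusted p 3.66e-07). The ROSI minus ICSI difference was -0.09 in 2-cell embryos, with a 95% interval of -0.31 to 0.14, and -0.01 in zygotes, with an interval of -0.26 to 0.24.

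Ccnb2 (chr9:70407692-70421547, minus strand), the second B cyclin, fell more steeply. Its level was 16.4, 28.6 and 27.8 TPM in ROSI 2-cell libraries, against 22.1, 27.3 and 24.6 TPM in ICSI 2-cell libraries. In zygotes it was 143 and 159 TPM after ROSI, against 170, 186 and 185 TPM after ICSI. The 2-cell groups overlapped, and both ROSI zygotes were below the ICSI zygotes. The 2-cell minus zygote change was -2.63 after ROSI (SE 0.20, limma adjusted p 7.4e-07) and -2.83 after ICSI (SE 0.18, limma adjusted p 1.52e-07). Between the injections, the ROSI minus ICSI difference was -0.06 in 2-cell embryos, with a 95% interval of -0.46 to 0.35, and -0.26 in zygotes, with an interval of -0.71 to 0.20. The ratio of Ccnb1 to Ccnb2 TPM averaged 7.37 ± 1.54 in ROSI 2-cell embryos and 3.23 ± 0.392 in ROSI zygotes (SD, n = 3 and 2), and 7.39 ± 0.185 in ICSI 2-cell embryos and 2.72 ± 0.267 in ICSI zygotes (SD, n = 3 each). Ccnb2-ps, a pseudogene of Ccnb2, stood at 2.94 ± 1.25 TPM in ROSI and 4.18 ± 0.781 TPM in ICSI 2-cell embryos (SD, n = 3 each) and under 0.3 TPM in every zygote library, so reads shared between the copies leave the 2-cell level of Ccnb2 less certain.

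Cdc20 was the member that rose. Cdc20 (chr4:118432901-118437352, minus strand) encodes the APC/C activator that brings cyclin B and securin to the complex. Its level was 269, 286 and 264 TPM in ROSI 2-cell libraries, against 224, 263 and 263 TPM in ICSI 2-cell libraries. In the zygotes there were 114 and 98.8 TPM after ROSI, against 122, 97.5 and 99.3 TPM after ICSI. Every 2-cell library was above every zygote library, and the 3 ROSI 2-cell libraries were narrowly above the ICSI ones. The 2-cell minus zygote change was 1.35 after ROSI (SE 0.12, limma adjusted p 2.92e-06) and 1.23 after ICSI (SE 0.11, limma adjusted p 2.32e-06). The ROSI minus ICSI difference was 0.13 in 2-cell embryos (limma adjusted p 0.495, 95% interval -0.12 to 0.38) and 0.01 in zygotes (limma adjusted p 1, 95% interval -0.27 to 0.28). Elovl1 overlaps the 3′ end of Cdc20 on the opposite strand and stood at 7.83 ± 2.43 TPM in ROSI 2-cell embryos and 25.9 ± 1.31 TPM in ROSI zygotes (SD, n = 3 and 2), the reverse order. The promoter windows of Cdc20 and Ccnb2 are shown because the genes moved in opposite directions between the stages, with the same marking and source as above.
Cdc20, chr4:118437294-118437593, minus strand: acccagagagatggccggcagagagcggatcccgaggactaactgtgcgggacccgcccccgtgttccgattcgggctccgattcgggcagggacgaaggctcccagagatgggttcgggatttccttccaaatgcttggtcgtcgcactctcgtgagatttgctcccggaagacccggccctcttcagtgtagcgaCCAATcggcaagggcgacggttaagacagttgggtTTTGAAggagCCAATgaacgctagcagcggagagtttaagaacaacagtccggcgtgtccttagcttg
Ccnb2, chr9:70421505-70421804, minus strand: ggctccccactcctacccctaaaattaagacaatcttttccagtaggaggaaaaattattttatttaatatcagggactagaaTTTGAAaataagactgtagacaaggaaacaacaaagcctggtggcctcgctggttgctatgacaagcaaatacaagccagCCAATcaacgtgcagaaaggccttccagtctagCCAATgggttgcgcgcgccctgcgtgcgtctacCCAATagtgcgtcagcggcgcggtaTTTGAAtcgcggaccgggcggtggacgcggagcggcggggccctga
The Cdc20 window held 2 CCAAT boxes and 1 CHR element and the Ccnb2 window 3 and 2, all on the strand of the gene. Both kinds of letters thus occurred in Cdc20, which rose, and in Ccnb2, which fell. The windows of Ccnb1 and Wee2, which also fell, held CCAAT boxes but no CHR letters, and that of Fbxo5 held both. The part of these letters in the stage changes was not tested.

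After ROSI, 1 member passed as higher and 8 as lower in 2-cell embryos than in zygotes, against 35.6% higher and 32.3% lower among all genes. After ICSI the counts were 1 higher and 7 lower, against 33.0% higher and 35.0% lower. The member medians were -1.47 after ROSI and -1.13 after ICSI, where the medians of all genes were 0.19 and 0.00. The stage changes of Fbxo5 were -1.43 after ROSI (SE 0.13, limma adjusted p 2.35e-06) and -0.85 after ICSI (SE 0.11, limma adjusted p 5.8e-05). Those of Wee2 were -1.81 after ROSI (SE 0.14, limma adjusted p 7.69e-07) and -1.25 after ICSI (SE 0.13, limma adjusted p 5.66e-06).

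The size of these changes moved with the scaling of the libraries. The 3 other scalings moved the median of all genes to between 0.44 and 0.56 after ROSI and to between 0.26 and 0.39 after ICSI. With TPM rescaled over protein-coding genes, 9437 genes were higher and 5667 lower after ROSI, against 7811 and 7088 in the values as deposited, and 9080 higher and 5826 lower after ICSI, against 7246 and 7687. The smallest change after ICSI under these scalings was -0.32 for Fbxo5 (limma adjusted p 0.01), -0.72 for Wee2 (limma adjusted p 0.000103) and -0.89 for Ccnb1 (limma adjusted p 6.93e-07). The calls of Camk2g, Mos, Fbxo43, Fbxo5, Wee2, Ccnb1, Ccnb2 and Cdc20 kept their direction and passed under every scaling and with each library left out.

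No member passed the test of a difference in stage change between ROSI and ICSI, which uses the same libraries as the comparisons above. It gave 0 members higher and 0 lower, against 0.0137% and 0.00456% of all genes. An unadjusted limma p under 0.05 was found for 3303 of the 21938 genes tested and for 2 members. These members were Fbxo5, at -0.58 (SE 0.17, limma adjusted p 0.162), and Wee2, at -0.57 (SE 0.19, limma adjusted p 0.207). Without ROSI 2-cell replicate 3 the Fbxo5 value was -0.73 and passed (limma adjusted p 0.0429). The larger difference in 2-cell embryos than in zygotes did not pass for these genes over the full set of libraries.

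**Figure D4:**
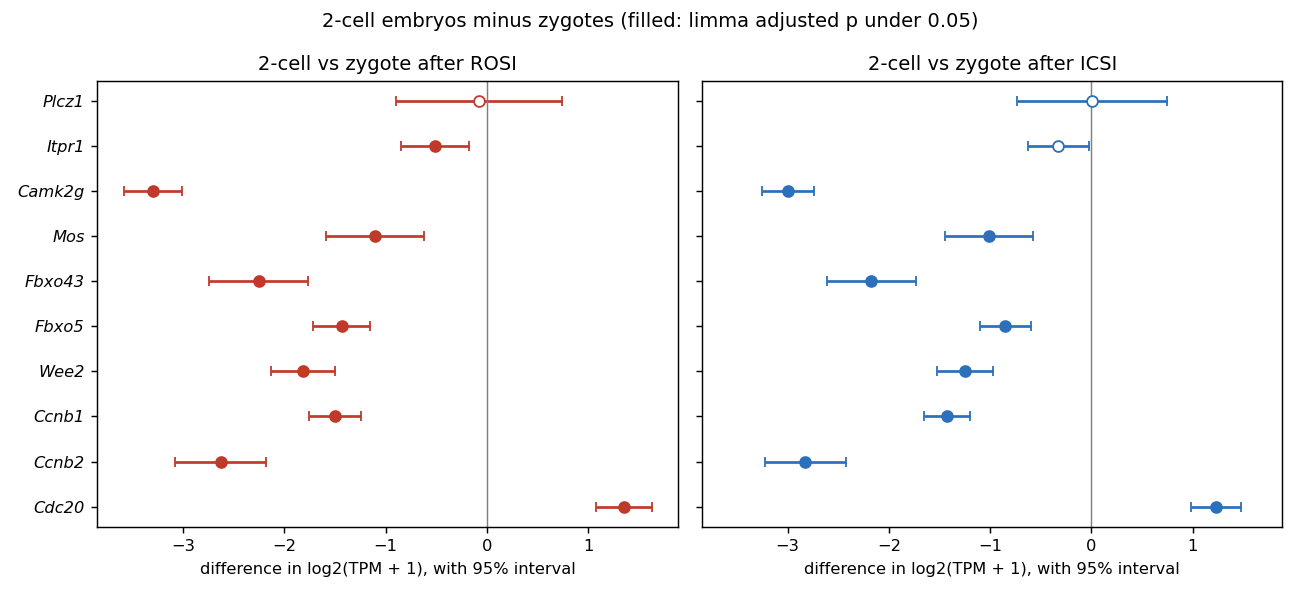
2-cell minus zygote change of each gene in log2(TPM + 1) (horizontal axes), after ROSI (left) and after ICSI (right). Points are limma estimates, bars are 95% intervals, and filled points have an adjusted p under 0.05. Camk2g, at -3.30 and -3.00, is lowest, and Cdc20, at 1.35 and 1.23, is the member to the right of 0 that passed.

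The 3′ ends of these transcripts bear on the same stages, since stored egg mRNAs are known to gain or lose their poly(A) tail and their translation through a cytoplasmic polyadenylation element (CPE). The CPE letters TTTTAT or TTTTAAT, on the strand of the transcript, lay within the last 100 bases of the 3′ UTR in 4 of the 10 members, and in 17.14% of 20602 annotated transcripts. For each gene only the longest transcript annotated as principal was scanned. Other transcript ends and other forms of the element were not searched, so a gene without the letters here may still hold a CPE. The sites are shown 5′ to 3′ in GRCm38 from the GENCODE M21 transcripts, with CPE letters and the hexamers AATAAA or ATTAAA in capitals.
Cdc20, chr4:118432914-118432943, minus strand: tgtTTTTATTTTATtttttctAATAAAgtt
Fbxo5, chr10:5799222-5799251, minus strand: tgagttttTTTTATatctgtgaatacctgt
Wee2, chr6:40466784-40466813, plus strand: tgtaAATAAAgaTTTTATcttatccaaaga
Plcz1, chr6:139989686-139989715, minus strand: ggtacatcTTTTATtaaccataaAATAAAa
The 4 transcripts with the letters include Cdc20, which rose between the stages, Fbxo5 and Wee2, which fell, and the spermatid transcript Plcz1. The hexamer lay within the last 40 bases in all 10 members and in 72.69% of the transcripts. TPM does not measure poly(A) tail length or translation.

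The order of the levels changed between the stages mainly through Cdc20, while Mos and Plcz1 were the lowest members in every group. In ROSI zygotes Wee2 was highest at 615 ± 42.2 TPM, followed by Ccnb1 at 486 ± 24.2 and Camk2g at 465 ± 7.22 TPM, and Cdc20 was seventh at 107 ± 10.9 TPM (SD, n = 2). ICSI zygotes had Wee2, Ccnb1 and Camk2g in the same places, and Cdc20 again seventh at 106 ± 13.7 TPM (SD, n = 3). In ROSI 2-cell embryos Cdc20 was highest at 273 ± 11.6 TPM, with Wee2 at 176 ± 36.8 and Ccnb1 at 172 ± 19.1 TPM within each other's spread (SD, n = 3). In ICSI 2-cell embryos Wee2 was highest at 288 ± 11.9 TPM, next to Cdc20 at 250 ± 22.5 TPM (SD, n = 3). The ratio of Cdc20 to Fbxo5 TPM was 3.70 ± 0.739 in ROSI and 2.09 ± 0.216 in ICSI 2-cell embryos (SD, n = 3 each), with lowest and highest values of 2.86 and 4.25 in ROSI and 1.84 and 2.26 in ICSI libraries. In zygotes that ratio was 0.523 ± 0.0580 after ROSI (SD, n = 2) and 0.490 ± 0.0570 after ICSI (SD, n = 3). The 2-cell ratio is no separate result, since its divisor Fbxo5 had already passed as lower after ROSI and Cdc20 had not passed.

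Genes around the members on the same pathways showed both directions, as did all genes tested. Of all genes tested, 35.6% passed as higher and 32.3% as lower after ROSI, and 33.0% and 35.0% after ICSI. Over 7 lists of pathway genes, with 112 tested, the shares were 35.7% and 48.2% after ROSI, and 32.1% and 52.7% after ICSI. Among 22 tested partners of CDK1, 8 passed as higher and 10 as lower in ROSI 2-cell embryos than in ROSI zygotes, and 8 and 12 after ICSI. Cdc25c, a phosphatase gene whose product activates CDK1, was higher by 3.36 after ROSI and 3.56 after ICSI on the log2 scale, whereas its relatives Cdc25a (-2.47 and -2.85) and Cdc25b (-2.92 and -2.13) were lower. Wee1, the somatic relative of Wee2, averaged 39.1 ± 4.73 TPM in ROSI 2-cell embryos and 7.70 ± 0.757 TPM in ROSI zygotes (SD, n = 3 and 2), and 41.8 ± 4.05 TPM in ICSI 2-cell embryos and 9.60 ± 0.216 TPM in ICSI zygotes (SD, n = 3 each). Its changes of 2.20 and 2.01 had the opposite sign to those of Wee2, and each passed (highest limma adjusted p with a library left out 3.35e-06). Cdk1 itself was higher by 1.20 after both ROSI and ICSI, with limma adjusted p-values of 0.000286 and 0.000115. Wee1, Cdk1 and Fzr1 were named after their values were seen.

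Among 25 tested subunits and partners of the APC/C, 5 passed as higher and 17 as lower in ROSI 2-cell embryos than in ROSI zygotes, and 5 and 18 after ICSI. Under the other scalings between 10 and 11 passed as lower after ROSI and between 11 and 13 after ICSI. In the values as deposited, 35.6% of all genes were higher and 32.3% lower after ROSI, and 33.0% and 35.0% after ICSI. Fzr1, which encodes Cdh1, the activator that takes over from Cdc20 late in mitosis, was lower by -2.02 after ROSI and -1.83 after ICSI. It averaged 12.4 ± 2.22 TPM in ROSI 2-cell embryos and 53.1 ± 7.04 TPM in ROSI zygotes (SD, n = 3 and 2), so its change ran opposite to that of Cdc20. Pttg1, which encodes securin, a target of the complex, changed by -3.01 after ROSI and -2.76 after ICSI, and Espl1, which encodes separase, by 1.38 and 1.24. Skp1a, a subunit of the ubiquitin ligase that acts on Emi1 and Emi2, changed by -3.78 and -3.59, and Ube2d1, a ubiquitin-conjugating enzyme gene, by -3.28 and -2.75.

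**Figure D5:**
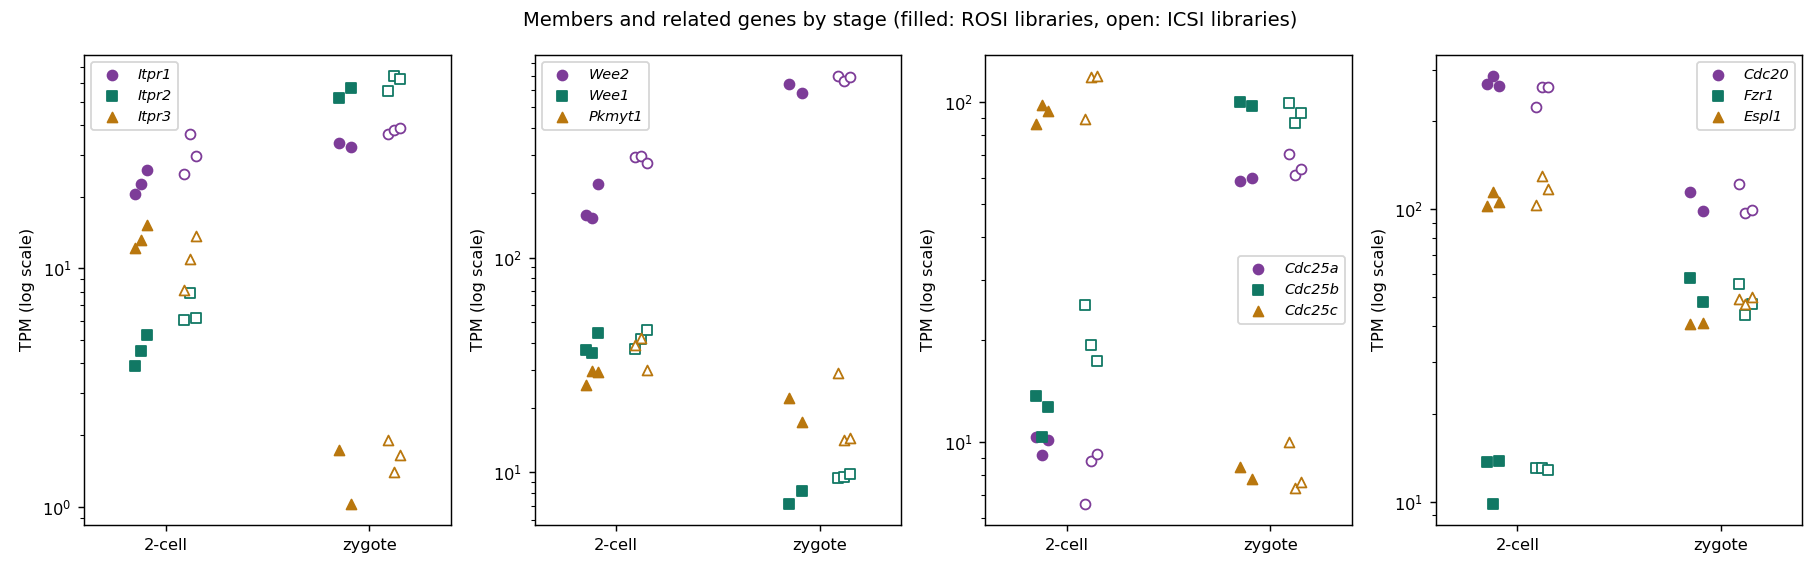
TPM (vertical axes, log scale) of members and related genes by stage (horizontal axes), with filled symbols for ROSI and open symbols for ICSI libraries. Wee1 is higher and Wee2 lower in 2-cell embryos, Cdc25c is higher and Cdc25a and Cdc25b lower, and Cdc20 and Espl1 are higher while Fzr1 is lower.

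Of 14 tested genes of the MAP kinase arm that Mos starts, 5 passed as higher and 6 as lower in ROSI 2-cell embryos than in ROSI zygotes, and 4 and 6 after ICSI. The stage counts in this paragraph stand against 35.6% of all genes higher and 32.3% lower after ROSI, and 33.0% and 35.0% after ICSI. Map2k1 was lower by -1.84 and -1.63 and Mapk3 by -1.99 and -1.38, while Map2k2 was higher by 1.92 and 1.63. The riser of the largest change in this list was Ppp2cb, which encodes a catalytic subunit of protein phosphatase 2A, higher by 5.78 and 6.77. Of 19 tested genes of calcium entry and release, 6 were higher and 10 lower after ROSI, and 5 and 11 after ICSI. Izumo1r, the egg receptor for sperm also called Juno, was lower by -3.72 and -3.24. Of 15 tested calmodulin kinase and calcineurin genes, 8 were higher and 6 lower after ROSI, and 7 and 6 after ICSI. Ppp3r1, a calcineurin subunit, was lower by -2.54 and -2.29. Of 10 tested genes of zinc control, 5 were higher and 3 lower after ROSI, and 5 and 4 after ICSI. Mt1, a metallothionein that binds zinc, was higher by 5.45 and 6.28, and the zinc importer gene Slc39a6 was lower by -1.90 and -1.88. Of 7 tested genes for other sperm-borne candidates and the neighbour of Plcz1, 3 were higher and 2 lower after ROSI, and 2 and 2 after ICSI. Each gene named in this paragraph passed with limma, with the same sign under the other scalings, but the counts moved. Under them the MAP kinase arm gave between 6 and 7 higher and between 3 and 4 lower after ROSI, and the CDK1 partners 10 higher and 8 lower after ICSI. The list medians after ROSI were -0.87 for calcium, 0.55 for calmodulin kinases and calcineurin, -0.07 for the MAP kinase arm, -0.18 for the CDK1 partners, -0.51 for the APC/C, 1.13 for zinc and 0.26 for the sperm-borne candidates, where all genes had 0.19. After ICSI, in the same order, they were -0.71, 0.34, -0.18, -0.41, -0.72, 0.52 and -0.31, where all genes had 0.00.

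Between ROSI and ICSI 2-cell embryos 7 of the 112 tested genes of these lists passed as higher and 11 as lower, 6.25% and 9.82%, against 4.93% and 4.58% of all genes tested. The counts of higher and lower genes were 1 and 3 of 19 for calcium entry and release, 0 and 1 of 15 for calmodulin kinases and calcineurin, 2 and 3 of 14 for the MAP kinase arm, 2 and 1 of 22 for the CDK1 partners, 2 and 2 of 25 for the APC/C, 0 and 0 of 7 for the sperm-borne candidates and 0 and 1 of 10 for zinc control. The 3 genes among them that passed with each library left out were Izumo1r at -0.65 (SE 0.11, limma adjusted p 0.00873), the ubiquitin-conjugating enzyme gene Ube2s at -0.51 (SE 0.08, limma adjusted p 0.00681) and the APC/C subunit gene Anapc1 at -0.48 (SE 0.09, limma adjusted p 0.0116). Cdc25b (-0.70, limma adjusted p 0.0164) and the zinc importer gene Slc39a10 (-0.60, limma adjusted p 0.0175) passed in 10 of the 11 such fits. Fitted on the 2-cell libraries alone, 0 genes of these 7 lists passed. In zygotes and for the difference of the stage changes 0 of their 112 tested genes passed with limma, while 12 and 19 had an unadjusted p under 0.05. Among all 21938 genes tested, 1392 and 3303 had such a p. Another scaling or a library left out brought at most 1 gene of the MAP kinase arm and 1 of zinc control past the threshold in zygotes, and at most 1 of zinc control for the difference of the stage changes.

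The genes whose log2 levels ran most like those of Fbxo5, Wee2, Camk2g and Plcz1 over the 11 libraries are given as a description, since the libraries share stage and scaling. For Fbxo5 they were Mansc1 (Pearson r 0.995), Wee2 (0.995) and Pofut2 (0.995). For Wee2 they were Tcl1b2, Selenow and Tcl1, each with r 0.997, which are abundant transcripts of the egg. For Camk2g they were Ywhab, Ndufaf4 and Oas1e (0.999 each). For Plcz1 the nearest was Dbil5, a testis gene that is also among the spermatid markers, with r 0.847. Dbil5 averaged 8.27 TPM in ROSI 2-cell embryos, 2.21 TPM in ICSI 2-cell embryos, 20.7 TPM in ROSI zygotes and 2.60 TPM in ICSI zygotes. The next were Chrm3 (0.795) and Mlxipl (0.779), which are not among the spermatid markers. These averaged 8.50 and 34.6 TPM in ICSI 2-cell embryos and 9.29 and 37.9 TPM in ICSI zygotes.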

How the data were processed

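RNA was sequenced from 11 libraries of mouse embryos in 4 groups, made from 1 ng of total RNA each with a stranded SMART-seq kit, per the labels' protocols. The values are TPM, as the authors deposited them in 1 table. The submitters' processing notes name fastp, Bowtie2, STAR 2.7.4a, featureCounts and genome build mm10, without their roles, and the annotation, filters and strand setting are not given in the sources used here. Of the 49585 entries, 186 share a symbol with another, and none of these is a member.

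Read numbers were recovered from TPM and GENCODE M21 exon lengths. In each library 87.9% to 90.7% of the values under 200 reads came out whole to within 0.01, and 9 of the 10 members did so in every library, Camk2g being the exception. The recovered depths were 23.0, 22.7 and 20.5 M reads (M, 1e6) for ROSI 2-cell, 8.48, 30.1 and 32.9 for ICSI 2-cell, 30.4 and 85.9 for ROSI zygote and 83.0, 79.6 and 70.7 for ICSI zygote libraries, in order of replicate. They were used to describe depth and the Plcz1 reads, and no count model was fitted.

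The test was limma 3.58.1 in R 4.3.3 on log2(TPM + 1), with 1 model of the 4 group means over all 11 libraries and a trend in the variance, Benjamini-Hochberg adjustment over the 21938 tested genes and a threshold of 0.05. Tables and figures used matplotlib 3.10.9, scipy 1.17.1 and pandas 2.3.3 under python 3.11.15. The model was tested on simulated data. Promoter windows are RefSeq's and transcript ends GENCODE M21's.

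All 10 members are named. Of 11 lists of related genes and markers, each list's counts are given, and the genes named come from those 2 that passed each way in a comparison with the largest change, groups that do not overlap and an average of at least 5 TPM in the higher group. Not all of these are named. Relatives and overlapping genes of members are named beside them, and Wee1, Cdk1 and Fzr1 were added after their values were seen. The members and the lists were chosen with earlier results of these data known. Replicate numbers were checked for pairing. The deviations of same-numbered libraries from their group means correlated with r between -0.14 and 0.63 over 15 pairs. For 30 pairs of different numbers r lay between -0.63 and 0.50. The highest values were those of ROSI with ICSI zygotes, 0.63 for replicate 1 and 0.51 for replicate 2. The deviations of the ROSI zygote libraries mirror each other, so these values are not independent. The replicate 1 zygote libraries are also those poor in small nuclear RNA. The labels state no pairing, so the numbers were not taken to pair the libraries, and a replicate block was fitted as an alternative.

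Alternatives were another pseudocount, other filters, 3 other scalings (median-ratio, TPM without the abundant noncoding RNA Gm23935 and the mitochondrial genes, and TPM over protein-coding genes, the last chosen after seeing the data), array weights, a replicate block, fits of the compared groups alone, a term for zygote libraries poor in small nuclear RNA, and each library left out.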

Additional observations from a re-analysis of the deposited data

How the results depend on the processing

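The members called between ROSI and ICSI 2-cell embryos numbered 4 under median-ratio scaling (Fbxo5, Wee2, Itpr1 and Plcz1, the last favoured by the filter on low values) and 0 when the compared groups were fitted alone, against 2 in the report. With each library left out, 0 to 1 member passed for the difference in stage change. The counts for zygotes and for the stage changes stayed within 1.5 times of those reported. With the replicate block Fbxo5 and Wee2 still passed in 2-cell embryos, at adjusted p-values of 0.0169 and 0.0164, and Itpr1 passed between the stages after ICSI (0.0479). The block changed no other call, and over all genes it gave 904 higher and 833 lower in 2-cell embryos and 4 higher and 0 lower in zygotes.

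Sign changes among members fell on differences that did not pass. Under median-ratio scaling, scaling without Gm23935 and mitochondrial genes, and protein-coding scaling, Ccnb1 in zygotes was 0.10, 0.061 and 0.085, the Itpr1 stage change after ICSI 0.15, 0.042 and 0.20, the Plcz1 stage change after ROSI 0.12, 0.11 and 0.18, and the Plcz1 difference in stage change 0.11, 0.097 and 0.16. Fbxo5 in zygotes was 0.018 under the median-ratio and 0.0070 under the protein-coding scaling, and Ccnb2 in 2-cell embryos was 0.013 without Gm23935. Array weights gave 0.012 for Ccnb1 in zygotes, 0.024 for Ccnb2 in 2-cell embryos, 0.089 for the Plcz1 stage change after ROSI and 0.071 for its difference in stage change. The replicate block gave 0.0069 for Ccnb1 and -0.0024 for Cdc20 in zygotes and 0.043 for the Mos difference in stage change. The term for small nuclear RNA gave -0.037 for Cdc20 in zygotes and 0.11 for the Plcz1 stage change after ROSI. The cause was not tested.

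With each library left out, the differences that changed sign ranged from -0.15 to 0.010 for Ccnb1 and from -0.19 to 0.19 for Ccnb2 in 2-cell embryos, and from -0.061 to 0.040 for Ccnb1 and from -0.096 to 0.11 for Cdc20 in zygotes. The Plcz1 stage change ranged from -0.0074 to 0.014 after ICSI and from -0.50 to 0.35 after ROSI. The differences in stage change ranged from -0.14 to 0.020 for Ccnb1, from -0.28 to 0.18 for Fbxo43, from -0.32 to 0.098 for Mos and from -0.51 to 0.34 for Plcz1. A lone remaining ROSI zygote was assumed to vary like the other groups. The filter at 5 TPM removes Plcz1, whose few reads limit its value in every ICSI library.

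Splits of all genes moved too. In 2-cell embryos the scaling without Gm23935 gave 1827 genes higher and 973 lower after ROSI, against 1082 and 1005, and the fit of the 2-cell libraries alone gave 49 and 36. In zygotes array weights gave 149 higher and 162 lower, against 25 and 7.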
